A study of Homo sapiens with 2 samples.

Results

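The 10 genes described here are noncoding hosts of small nucleolar RNAs (snoRNAs): SNHG20, SNHG15, SNHG7, SNHG16, SNHG17, ZFAS1, SNHG1, GAS5, SNHG12 and SNHG3. Their promoters were examined in a ChIP-seq experiment on the transcription factor MYC. Each gene was given a start site on GRCh37, and a MYC peak belonged to it when the peak's summit lay within 5 kb of that site. By this rule 17 of the 17659 peaks in the deposited list belonged to the 10 genes, and each of the 10 had at least 1. The genes were chosen by their MYC peaks, with the positions, folds and −log10 p values of the list already known, so these values are descriptions and carry no test.

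The MYC ChIP came from TET21 cells, also called SH-EP/TET21/N, a human neuroblastoma line derived from SH-EP in which doxycycline is known to shut off a MYCN transgene. They made ectopic full-length (WT) MYC, and 1 µg/mL doxycycline was present for 7 days. There was 1 ChIP library, made with 2 µg of a rabbit polyclonal anti-MYC antibody named N-262, and 1 input library of sonicated chromatin from the same cells, so no value has a replicate error. Whether N-262 tells the ectopic protein from the cells' own is not given in the sources used here, and RNA levels of the 10 genes were not analysed here.

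A snoRNA host gene is transcribed and spliced like an mRNA gene, and the snoRNAs are trimmed out of its introns. Box C/D snoRNAs guide methylation of ribosomal RNA, box H/ACA snoRNAs guide its pseudouridylation, and scaRNAs modify the small RNAs of the spliceosome. The spliced host transcripts encode no known major protein, and many are of the 5′ TOP class, whose transcripts open with a C followed by a run of pyrimidines, as those of ribosomal proteins do. MYC binds DNA with MAX at E-boxes, of which CACGTG is the canonical form, and is known as a driver of ribosome production. In the RefSeq gene table, the 10 host genes span 41 snoRNA or scaRNA genes, of which 25 bear box C/D names, 13 box H/ACA names, 1 is a scaRNA and 2 have no family name. GAS5 spans the most, 11, followed by SNHG1 with 9.

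Promoter sequences show what MYC could meet at these starts. RefSeq promoters (GRCh38.p14, 250 bases before to 50 after the annotated start) were at hand for 9 of the 10 genes, all but SNHG15. These starts were not matched to the GRCh37 start sites of the peaks, and may be other starts of the same gene, so no motif is placed inside a peak. Of the genes shown, SNHG20 had the strongest MYC peak of the 10, SNHG7 had the one canonical E-box, SNHG1 had the most matches, and SNHG12 and SNHG3 had the weakest peaks. Capitals mark CACGTG and the non-canonical E-boxes CACGCG and CATGCG as well as CACGAG, on either strand, and each sequence runs 5′ to 3′ on the gene's strand.
SNHG20, chr17:77088393-77088692 (+): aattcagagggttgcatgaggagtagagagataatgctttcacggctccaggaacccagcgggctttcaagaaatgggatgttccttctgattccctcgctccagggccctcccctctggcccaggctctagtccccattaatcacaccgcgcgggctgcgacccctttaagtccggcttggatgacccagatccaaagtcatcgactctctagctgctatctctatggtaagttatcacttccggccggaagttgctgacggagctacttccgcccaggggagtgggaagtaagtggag
SNHG7, chr9:136728135-136728434 (-): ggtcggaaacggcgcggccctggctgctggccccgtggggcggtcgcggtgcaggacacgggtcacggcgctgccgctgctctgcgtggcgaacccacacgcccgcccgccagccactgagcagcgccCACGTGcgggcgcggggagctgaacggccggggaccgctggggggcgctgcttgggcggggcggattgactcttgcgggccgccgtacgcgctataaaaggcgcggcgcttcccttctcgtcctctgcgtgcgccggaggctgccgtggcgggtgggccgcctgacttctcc
SNHG1, chr11:62855836-62856135 (-): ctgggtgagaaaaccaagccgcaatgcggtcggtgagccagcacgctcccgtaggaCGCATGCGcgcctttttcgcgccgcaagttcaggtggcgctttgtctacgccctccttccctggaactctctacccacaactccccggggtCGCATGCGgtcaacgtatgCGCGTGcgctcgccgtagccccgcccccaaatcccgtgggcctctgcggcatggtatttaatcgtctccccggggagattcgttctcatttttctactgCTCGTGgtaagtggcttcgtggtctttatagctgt
SNHG12, chr1:28581824-28582123 (-): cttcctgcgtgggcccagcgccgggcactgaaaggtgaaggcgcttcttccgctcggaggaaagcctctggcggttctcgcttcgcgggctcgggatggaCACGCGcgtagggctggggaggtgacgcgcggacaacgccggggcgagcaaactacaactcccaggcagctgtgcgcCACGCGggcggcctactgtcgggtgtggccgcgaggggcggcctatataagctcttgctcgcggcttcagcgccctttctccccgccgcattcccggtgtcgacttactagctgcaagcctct
SNHG3, chr1:28505693-28505992 (+): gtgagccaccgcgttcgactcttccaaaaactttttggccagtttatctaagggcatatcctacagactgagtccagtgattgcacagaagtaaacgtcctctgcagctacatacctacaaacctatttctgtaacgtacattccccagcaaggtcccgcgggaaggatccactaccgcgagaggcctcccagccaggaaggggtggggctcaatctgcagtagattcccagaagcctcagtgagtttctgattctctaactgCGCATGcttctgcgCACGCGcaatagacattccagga

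The canonical E-box occurred in 1 of 9 host gene promoters (11.1%) and in 7.26% of 35114 RefSeq promoters of the same length. Of a list of 32 other snoRNA host genes, coding and noncoding, 28 had a promoter in the table, and 2 of these (7.14%) held it. In SNHG7 it began 122 bases before the start. Any of the 4 E-box forms occurred in 5 of 9 host promoters (55.6%), in 9 of the 28 other hosts (32.1%) and in 27.3% of all promoters. Most of this came from CACGCG, which was present in SNHG16, SNHG12, SNHG3 and SNHG1, thus in 4 of 9 (44.4%), against 3 of the 28 other hosts (10.7%) and 11.4% of all promoters. SNHG1 held 6 matches at 4 places, since CATGCG read on both strands overlaps itself in cgcatgcg at 2 of them. The promoters of SNHG20, SNHG17, GAS5 and ZFAS1 held none of the 4 forms, which says only that these letters are not in these windows. With 9 promoters a single match moves the share by 11.1 percentage points.

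Most of the promoters were CpG-rich, as were those of the other hosts. Their ratio of observed to expected CpG had a median of 1.02, against 0.908 over the other hosts and 0.579 over all RefSeq promoters. A ratio of 0.6 was reached by 7 of 9 (77.8%), by 25 of the 28 other hosts and by 48.9% of all. GC content had a median of 60.0% against 58.7% over all promoters, and ranged from 37.7% in GAS5 to 75.3% in SNHG7. A GC box, GGGCGG on either strand, was present in 6 of 9 (66.7%), in 20 of the 28 other hosts (71.4%) and in 45.0% of all. SNHG7 held 4. TATAAA on either strand was present in SNHG7, where it began 30 bases before the start, and in SNHG1, where it lay on the other strand after the start. It was found in 6 of the 28 other hosts (21.4%) and in 11.5% of all promoters.

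The first transcribed bases show which annotated starts have the 5′ TOP form. The stretches below run from 10 bases before the RefSeq start through the first 20 transcribed bases (GRCh38.p14), with the unbroken run of C and T from the first base in capitals.
SNHG12, chr1:28581854-28581883 (-): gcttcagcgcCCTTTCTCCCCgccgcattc
ZFAS1, chr20:49278632-49278661 (+): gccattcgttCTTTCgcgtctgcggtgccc
SNHG7, chr9:136728165-136728194 (-): ccttctcgtcCTCTgcgtgcgccggaggct
SNHG1, chr11:62855866-62855895 (-): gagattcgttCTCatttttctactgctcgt
GAS5, chr1:173869026-173869055 (-): tcatgaattcagatgtgtttattttggagc

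SNHG12, with a run of 11, and ZFAS1, with a run of 5, opened with C and at least 5 pyrimidines in a row, so 2 of 9 host promoters matched (22.2%), against 11 of the 28 other hosts (39.3%) and 4.07% of all promoters. SNHG7 and SNHG1 also opened with C, but their runs ended after 4 and 3 bases. GAS5 opened with A at this annotated start, which may be another start than the one used for its peak. Its letters here therefore do not show whether that other start has the 5′ TOP form. When the run could open within 5 bases of the start, 5 of 9 matched (55.6%), against 14 of the 28 other hosts and 21.1% of all promoters.

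MYC peaks sat at the start sites themselves. For each gene the best peak was taken as the one with the highest −log10 p from the peak caller. The summits of the 10 best peaks lay 25 to 438 bp from the start site, with a median of 110.5 bp. All 10 start sites lay inside a called peak, 9 of them inside the best one. Positions within 5 kb of any MYC summit make up 4.63% of chromosomes 1 to 22 and X, a share over all sequence and not over promoters. Of the 9 genes whose strand is in the RefSeq table, the best summit lay downstream of the start in 6 and upstream in 3, SNHG12, SNHG1 and SNHG7.

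**Figure D1:**
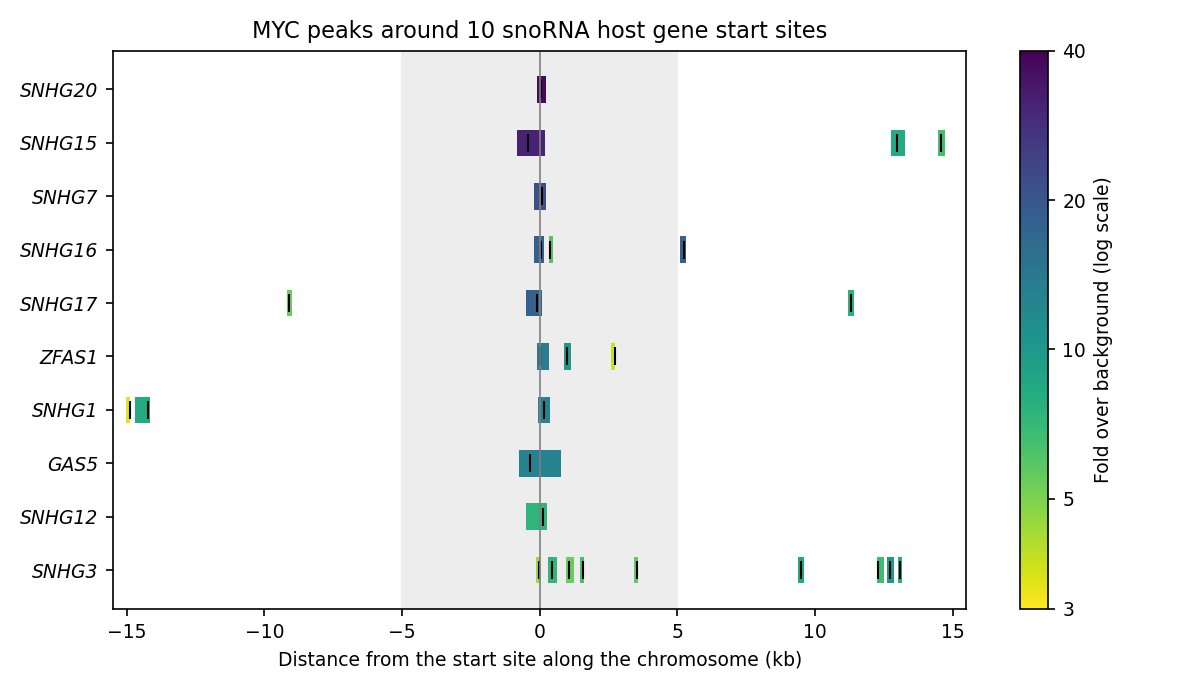
Map of MYC peaks within 15 kb of 10 snoRNA host gene start sites, with 1 row per gene in order of best fold, distance from the start site along the chromosome in kb, bars for peak extents, black ticks for summits and colour for fold over background. The grey band is the window of 5 kb. Each row has a peak across its start site, 3 rows have more than 1 peak in the window, and SNHG3 has 5.

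Most of these sites were among the stronger ones of the list. The fold is the authors' ratio of ChIP fragments at the summit to the caller's local background, with 1 added to each. It had a median of 15.7 over the 10 best peaks, with a range of 7.33 to 37.6. Over all 17659 peaks the quartiles were 5.17 and 8.38 and the median 6.40. Of the 10 best peaks, 8 passed a fold of 10, beside 15.4% of all peaks, and 3 passed a fold of 20, SNHG20, SNHG15 and SNHG7, beside 1.43% of all peaks. Since the genes were chosen with these values known and each best peak is the highest of its window, nothing is read from these shares. The other 7 peaks in the windows were weaker, with folds of 3.69 to 9.81.

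**Figure D2:**
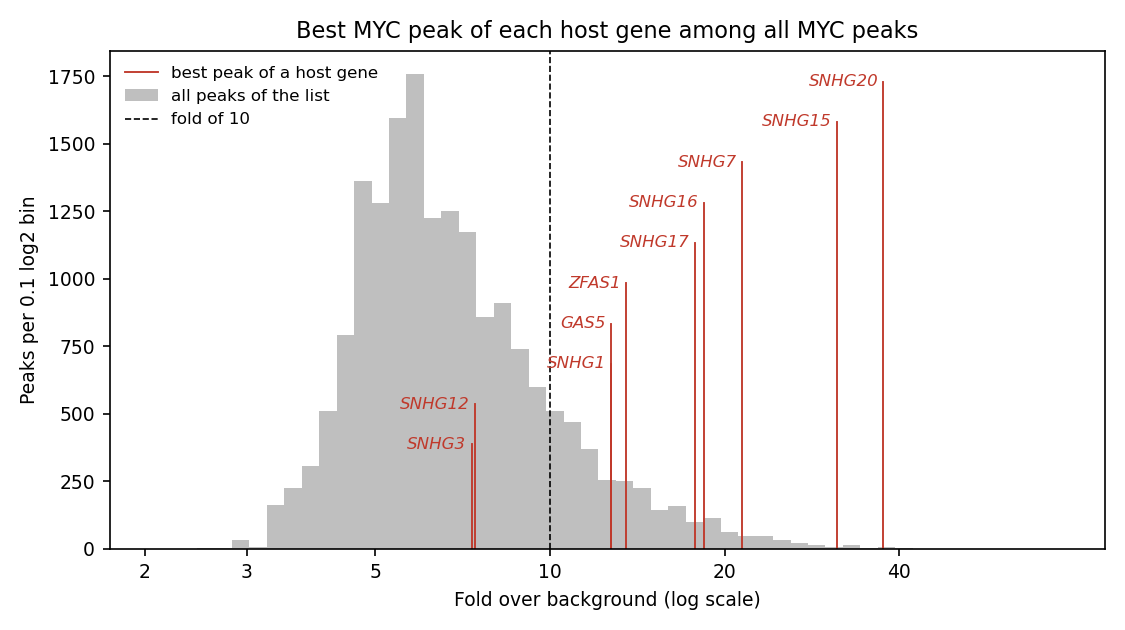
Fold over background on a log scale against the number of peaks per bin, with red lines for the best MYC peak of each host gene, whose heights only separate the labels, and grey bars for all 17659 peaks. The folds of 8 genes lie right of the dashed line at 10, and SNHG12 and SNHG3 lie left of it, near the bulk of the list at a median of 6.40.

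Among the hosts of box H/ACA snoRNAs, SNHG15 had the strongest peak and SNHG3 the weakest. SNHG15, which carries SNORA9, was bound on chromosome 7 at 45025745 to 45026742, a peak of 998 bp that was wider than 99.7% of the list. Its summit, 438 bp from the start site at 45026560, had 86 ChIP fragments (95% Poisson interval 68.8 to 106.2) where 1.78 were expected from the background. The fold was 31.3 and the −log10 p was 111.29. It ranked 11 by −log10 p and 32 by fold among all peaks, and 4 by −log10 p among the 1050 peaks of chromosome 7.

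SNHG7, host of SNORA17A and SNORA17B, was bound near the end of chromosome 9 at 139622425 to 139622865, with its summit 85 bp upstream of the start at 139622636. Its 63 fragments (48.4 to 80.6), where 1.98 were expected, gave a fold of 21.5. This was the second strongest of 782 peaks on that chromosome by −log10 p (70.97), and no other MYC summit lay within 50 kb of the start.

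SNHG17, which carries the SNORA71 family, was bound on chromosome 20 at 37063502 to 37064073, with its summit 102 bp downstream of the start at 37063997. Its 52 fragments (38.8 to 68.2) over a background of 1.98 gave a fold of 17.8, rank 4 by −log10 p of 447 peaks on the chromosome.

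SNHG3 carries SNORA73A and SNORA73B, the U17 snoRNAs, which act in cleavage of the ribosomal RNA precursor. It differed from the other genes in form, with 5 small peaks on chromosome 1 in place of 1 strong one. The peak across the start site at 28832455 ran from 28832333 to 28832503 and was the weakest of the 5, with 9 fragments (4.12 to 17.1) over a background of 1.31 and a fold of 4.33. The best, at 28832771 to 28833073, had its summit 427 bp downstream, with 16 fragments (9.15 to 26.0) where 1.32 were expected, which made the fold 7.33 and the −log10 p 13.04. Further summits lay 1060, 1561 and 3532 bp downstream, with folds of 5.40, 6.49 and 5.65. The 5 peaks together covered 1073 bp, and their summit counts add up to 63. This sum over 5 summits is not the same measure as the count at the single summit of another gene. Having 5 or more summits within 5 kb, its own included, was true of the best peak of SNHG3 and of 1.54% of all peaks. This cut is the count of SNHG3 itself. Of the 10 best peaks, 7 had no other summit within 5 kb, beside 57.6% of all peaks.

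SNHG20, host of the scaRNA SCARNA16, had the highest fold of the 10. Its peak on chromosome 17 at 75084615 to 75084968 had its summit 50 bp downstream of the start at 75084725, with 100 fragments (81.4 to 121.6) over a background of 1.69. The fold was 37.6 and the −log10 p 137.77, which placed it 3 by −log10 p, 8 by fragments and 12 by fold among all peaks. At 354 bp the peak was narrower than that of SNHG15, and no other summit lay within 15 kb of the start.

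The hosts whose snoRNAs mostly bear box C/D names, SNHG16, ZFAS1, SNHG1 and GAS5, had folds of 12.8 to 18.4. SNHG16, first described in neuroblastoma under the name ncRAN, carries SNORD1A, SNORD1B and SNORD1C. Its best peak on chromosome 17 at 74553655 to 74554019 had its summit 40 bp downstream of the start at 74553848, with 52 fragments (38.8 to 68.2) over 1.87 and a fold of 18.4. A smaller peak followed 338 bp further on, with 17 fragments (9.90 to 27.2) and a fold of 6.04. Another summit lay 5223 bp downstream of the start, just outside the window, with 41 fragments and a fold of 18.1 (−log10 p 46.65). The outermost summit inside any window was the one of SNHG3 at 3532 bp.

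SNHG1, which carries 8 box C/D snoRNAs from SNORD22 to SNORD31, was bound on chromosome 11 at 62623321 to 62623770. The summit lay 162 bp upstream of the start at 62623386, with 37 fragments (26.1 to 51.0) over a background of 1.98 and a fold of 12.8. GAS5, the growth arrest-specific host of 10 box C/D snoRNAs, had exactly the same count, background and fold, values shared by 5 peaks of the list. The 2 peaks differed in shape. That of GAS5, on chromosome 1 at 173836381 to 173837886, was 1506 bp wide, wider than 99.98% of the list, and that of SNHG1 was 450 bp. The summit in GAS5 lay 368 bp downstream of the start at 173837125.

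ZFAS1 carries SNORD12, SNORD12B and SNORD12C, and was bound by 3 peaks on chromosome 20 whose folds were lower at each step into the gene. The best, at 47894599 to 47895035, had its summit 25 bp downstream of the start at 47894715, the closest of all 10, with 29 fragments (19.4 to 41.6) over a background of 1.22 and a fold of 13.5. The next summits lay 1000 and 2737 bp downstream, with 18 and 10 fragments and folds of 9.81 and 3.69.

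SNHG12, which carries 3 box H/ACA snoRNAs and SNORD99, had a broad but shallow peak on chromosome 1 at 28907864 to 28908624. The summit lay 119 bp upstream of the start at 28908366. There 26 fragments (16.98 to 38.1) lay over a background of 2.64, the highest background of the 10, so that the fold was 7.42. By fragments it ranked higher, above 90.8% of the list, than by fold, above 65.7%. SNHG12 and SNHG3, both on chromosome 1, were below a fold of 10, as were most peaks of the list.

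**Figure D3:**
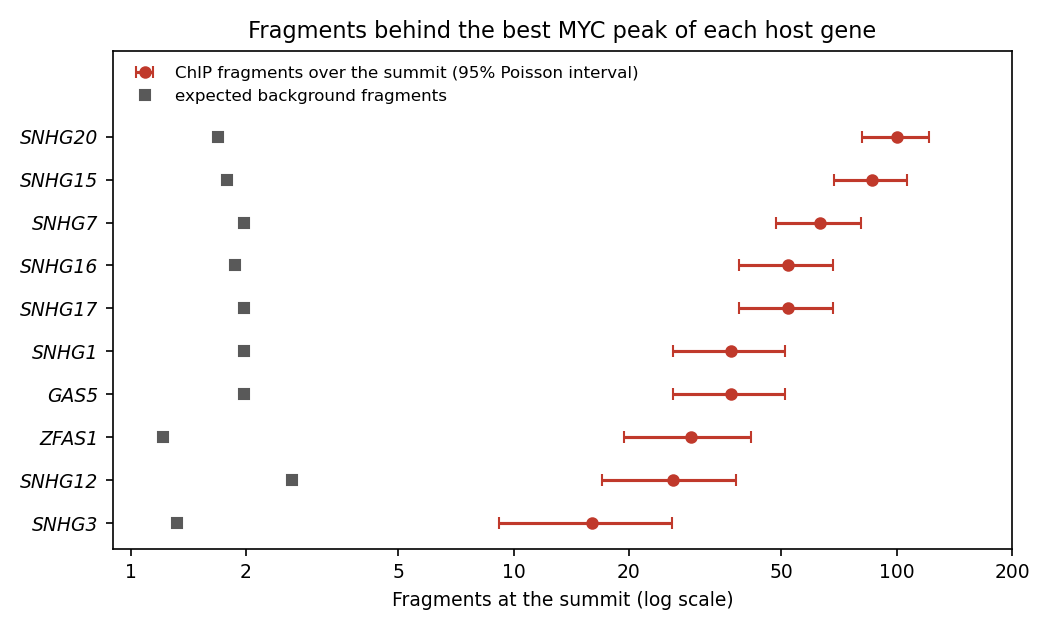
Fragments at the summit of the best MYC peak of each host gene on a log scale, with red points for ChIP fragments and their 95% Poisson intervals and grey squares for the expected background. ChIP fragments run from 100 in SNHG20 to 16 in SNHG3, and backgrounds lie between 1.22 and 2.64.

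The counts behind these peaks limit how finely the genes can be ordered. Ordered by ChIP fragments, the genes ran SNHG20, SNHG15, SNHG7, SNHG16 and SNHG17 alike, SNHG1 and GAS5 alike, ZFAS1, SNHG12 and SNHG3. The 95% Poisson intervals of every 2 neighbours in this order overlapped. Of the 45 pairs of genes, 24 had intervals that did not overlap, and the interval of SNHG20 was apart from those of 8 genes, all but SNHG15. The intervals cover counting error in 1 library only.

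The local background under these promoters was above that of most peaks. Its median over the 10 best peaks was 1.93 expected fragments, with all 10 above the median of 1.12 over all peaks and above the median of 1.03 over peaks with a fold of 10 or more. In 9 of 10 genes it also exceeded the median of the peaks on the gene's own chromosome, and SNHG3 was the exception. Of the 10 genes, 6 lie on chromosomes 1, 7 or 17, whose peaks had a median background of 1.32 each, against 0.937 to 1.03 on chromosomes 9, 11 and 20. The part of the background in the order of the genes was not tested. In 4 genes, SNHG1, SNHG17, SNHG7 and GAS5, the background was the same value of 1.98, and the weakest of the 1732 peaks called at that value had 9 fragments and a fold of 3.36. Many peaks thus shared exactly the same background, and no counting error is given for it. At expected counts this low, differences in background between genes or chromosomes may rest on few input fragments. The best peaks were also wide, at a median of 445.5 bp against 226 bp over the list and 348 bp over peaks with a fold of 10 or more. Each was taken as the strongest of its window, and neither set was matched to them in strength. Nothing is therefore read from these widths.

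Several of these genes start close to another gene, and a peak there cannot be told apart between the genes. In the RefSeq tables SLC3A2, a subunit of amino acid transporters, starts within 1 kb of SNHG1 on the opposite strand, and ZBTB37, a zinc finger gene, does so at GAS5. On the same strand, RCC1, the nucleotide exchange factor of the GTPase Ran, starts within 1 kb of SNHG3, SEC14L1 within 1 kb of SNHG20, and the predicted gene LOC124900276 within 1 kb of SNHG7. No such start was found in the tables for SNHG16, SNHG12, SNHG17 and ZFAS1. The tables do not hold every start, as the lack of a promoter for SNHG15 shows. Their peaks may therefore also lie at the start of another gene.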

How the data were processed

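MYC ChIP-seq and input libraries (1 each) came from TET21 cells fixed with 1% formaldehyde for 10 minutes. Per the submitters' processing notes, the build was GRCh37 and the tools included MACS2 2.1.0, STAR 2.5.2a, Picard 2.7.1, SAMtools 1.3 and bedtools, whose roles are not stated. The deposited file is a filtered peak list of the ChIP library in narrowPeak layout. The authors' filter is not given in the sources used here. The deposited fold is a ratio over the caller's local background, the deposited −log10 p and −log10 q values are the caller's, and the deposited score is 10 times the −log10 q, rounded down. Library depth is unknown.

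Fragments at each summit and their expected background were recovered from the fold, (pileup + 1) / (background + 1), and −log10 p, a Poisson tail: a whole pileup between 3 and 699 matched within 0.001 for 100.0% of peaks. The procedure was tested on simulated data. Intervals of fragment counts are exact 95% Poisson and cover counting error only, since fragments were counted without molecular identifiers. Coordinates are GRCh37, 1-based. Promoters are from RefSeq (GRCh38.p14), and 2 of 35116 with letters other than A, C, G and T were left out. Python 3.11.15, scipy 1.17.1 and numpy 2.4.6 were used.

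The genes, start sites and lists were chosen with earlier results of these data known, and all 10 genes are named. No comparison between groups of samples could be tested with 1 ChIP library. The alternatives were other windows, thresholds, rankings and promoter lengths. Peaks at the 32 other host genes were not analysed here, since no GRCh37 annotation was used.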

Additional observations from a re-analysis of the deposited data

How the results depend on the processing

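Among 28 alternatives, 11 changed a count by more than 1.5 times, took a value outside its 95% interval or moved the genome share, which has no interval, and 17 did none of these. The intervals of the median rank and the median pileup do not measure the spread between the 10 genes. All 10 genes had a peak with windows of 1, 2 and 10 kb, with any base of the peak counted, at a −log10 q of 5 or more and at or above the median −log10 p, with 13 to 20 peaks in all. At a fold of 20 the genes past the threshold fell to 3, since the threshold is higher. The median best peak stood above 97.2% of the list by −log10 p, above 95.6% by fold and above 98.3% by pileup. Ranking within its own chromosome, an alternative added after seeing the data, gave 97.0%. The genes were chosen with these values known and each best peak is the highest of its window, so nothing is read from these ranks. With the background set to the genome-wide floor, the median pileup was 25.4 in place of 44.5, since this ignores the higher background of these sites. Positions within 1 kb of a summit made up 1.04% of the genome span, and leaving out stretches of over 5 Mb with no peak gave 5.06% within 5 kb. With 100 bases before the start in place of 250, the canonical E-box was found in 0 host promoters. Among promoters at or above the lowest GC content of the hosts, it was found in 7.75%, and any E-box form in 29.2%. The pyrimidine run was found in 5 host promoters in place of 2 when sought within 5 bases of the start. At the start itself it was found in 39.3% of the other hosts' promoters, against 4.07% of all. No paired analysis was possible because there was 1 ChIP and 1 input library. The smallest pileup in the list was 5 fragments, so the list shows no site with fewer. As the list was filtered, this value does not measure library depth.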

Other observations

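Beyond the window, 11 more MYC summits lay between 5 and 15 kb from the start sites of 5 of the 10 genes. SNHG3 had 4 of them, 9505 to 13105 bp downstream, with folds of 8.48, 6.71, 9.93 and 8.09, so that 3 of the 4 exceeded the 7.33 of its best peak inside the window. In all, 9 summits lay within 15 kb of its start. The summits beyond the window were listed by distance only and may lie at other genes. SNHG15 had 2, with folds of 8.39 and 6.53, SNHG17 had 2 on either side of its start, with folds of 5.44 and 7.63, and SNHG1 had 2, with folds of 8.19 and 3.36. SNHG16 had the strongest, with a fold of 18.1. Within 15 kb of SNHG20, SNHG7, GAS5 and SNHG12 the peak at the start site was the only one.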
